A study of Caenorhabditis elegans with 96 samples.

Results

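The genes described are those of the cytosolic ribosomal proteins of the nematode Caenorhabditis elegans, taken as every protein-coding gene of the WBcel235 annotation whose symbol begins with rpl- (large subunit) or rps- (small subunit). The rule found 78 genes, 47 of the large and 31 of the small subunit, among 46904 gene identifiers. RNA was sequenced from whole animals of 85 recombinant inbred advanced intercross lines, which are inbred mosaics of 2 wild-type genomes, and of both parents. N2 is the strain on which the reference genome is built, and CB4856 was isolated in the wild on Hawaii. Each line had 1 library, N2 had 4 (batches 3, 6, 8 and 9) and CB4856 had 7 (batches 2, 3, 4, 6, 7, 8 and 9). All animals were synchronised as starved hatchlings, fed Escherichia coli HT115, labelled as untreated controls and harvested as L4 larvae. The labels name no transgene or mutation, do not give the genotype of any line along the genome and do not say whether the parental libraries came from separate cultures, so p-values measure the spread between these libraries, which may be technical.

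The cytosolic ribosome translates nuclear-encoded mRNAs and is built from ribosomal RNA and nearly one copy of each ribosomal protein per particle. Its proteins are therefore needed in near-equal amounts, and their mRNAs are among the most abundant in growing animals. In C. elegans a few of these proteins are encoded by paralogue pairs. The germline, which fills much of a mature hermaphrodite, is rich in ribosomes and keeps its X chromosome largely silent during most of germ cell development.

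Libraries held 22069702 to 24001627 gene counts, so counting error was small for these genes, with a median SD of 0.0088 on the log2 scale per library. Marker genes of the germline, oocytes, yolk and cuticle were all detected in the lines. The 6 yolk genes, which are known to be transcribed in adult hermaphrodites, summed to 17246 to 73777 CPM (the count of a gene scaled to the gene counts of its library) in the lines, although the labels give a larval stage. Total RNA of whole animals cannot tell a change in the number of cells of one type from a change in RNA per cell.

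The library of the line QX571 of batch 7 stood apart from the other lines across the transcriptome, some ribosomal protein genes included. It had the highest CPM of the 85 lines in 18.2% of 16500 genes tested and the lowest in 15.1%. Among the 78 members it was highest in 7 (8.97%) and lowest in 0, so the share of members at the top was below that of all genes. Relative to the level that the members share (the median of their log2 CPM in a library), the same 7 were highest and 7 others were lowest. That shared level stood at 1313 CPM in QX571, against a mean of 1188 CPM over all 85 lines. The levels of the 7 highest members were 1.82- to 2.87-fold of the median CPM of the other 84 lines. rpl-7A, which encodes a large subunit protein, was at 3152 CPM in QX571, against a lowest of 855, a median of 1098 and a highest of 1375 CPM in the other lines. rpl-30, also of the large subunit, was at 2311 CPM in QX571, against 721, 869 and 1143 CPM (lowest, median and highest) in the others. rps-22, of the small subunit, was at 2217 CPM in QX571, against 708, 893 and 1166 CPM in the others. In all 3 genes the next highest line lay far below QX571, as the plot of that line against the others shows.

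The same library held 2829 CPM of rpl-12, whose product sits at the base of the ribosomal stalk, against a median of 1367 CPM in the other lines. rpl-26 was at 2112 CPM against a median of 1073. rpl-1, which encodes the protein of the mobile L1 stalk, was at 3331 CPM against a median of 1827. rpl-3, which encodes a protein next to the catalytic centre of the large subunit, was at 5687 CPM against a median of 3112. These 7 genes lie on chromosomes I, II, III and IV, and their summed weight did not set the library apart in total, since all 78 genes together took 11.6% of the gene counts of QX571. QX571 and the 7 genes were singled out after their values were seen, and with 1 library of the line there is no replicate and no test.

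Markers of several tissues were also at an extreme in QX571. The 8 germline genes named below summed to 2611 CPM in QX571, against a lowest of 2813 CPM in the other lines, and 13 oocyte and eggshell genes to 6831 CPM, against a lowest of 8664 CPM. The 5 intestine genes summed to 3171 CPM in QX571, against a highest of 2645 CPM in the other lines, and 10 genes of the moult to 410 CPM, against a highest of 357 CPM. The sums of the sperm, yolk, cuticle collagen, body muscle and neuron lists lay inside the range of the other lines. QX571 also had the highest value of all lines on the first principal component of the lines, which was computed without the members. The part of these in the levels of the 7 genes was not tested.

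**Figure D1:**
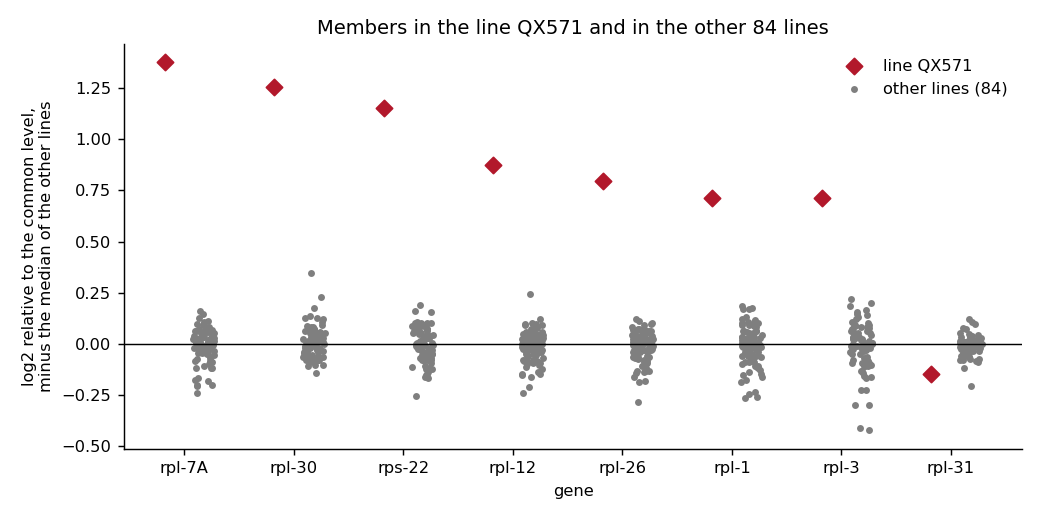
Level of 8 ribosomal protein genes in the line QX571 (red diamonds) and in the other 84 lines (grey points), as log2 level relative to the common level of the 78 genes minus the median of the other lines. For 7 genes QX571 sits between 0.71 and 1.38 and above every other line, while for rpl-31, shown for contrast, it lies below 0. In CPM rpl-31 was near the median of the other lines (1185 against 1181), while the common level of QX571 stood at 1313 CPM.

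As background, 4 of these genes are known in C. elegans, rpl-3, rpl-7A, rpl-12 and the L10a gene rpl-1, to make a share of unproductively spliced mRNA that the smg genes remove by nonsense-mediated decay. The 9 genes smg-1 to smg-9, looked at after the 7 genes had been found, were at these levels in QX571. smg-1, which encodes a protein kinase of the pathway, was at 234 CPM in QX571, against a lowest of 67.3, a median of 105 and a highest of 139 CPM in the other lines. smg-7 was at 22.4 CPM in QX571, against 22.6, 30.2 and 37.3 CPM in the others. smg-1 was thus above and smg-7 just below all other lines, and the other 7 smg genes lay inside their range, in a library that was highest or lowest in the shares of all genes given above. QX571 also held 694 of 16500 genes at over 2-fold above the next highest line, against a median of 0 and a highest of 141 for any other line. The part of these in the 7 ribosomal protein genes was not tested.

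Elsewhere the lines kept to the common level closely. Among the 77 members with a mean of at least 10 CPM, 26 of 6545 pairs of member and line departed by over 0.4 log2 from that member's median over lines. QX571 gave 8 of the 26, QX519 of batch 9 gave 4, QX520 of batch 6 gave 3 and QX547 of batch 3 gave 2, and 72 lines gave 0. In QX519 the members were rpl-11.1, rpl-11.2, rpl-25.1 and rpl-37, and in QX520 they were rpl-22, rpl-41.2 and rps-13.

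The level of each gene was next set against the level that the 78 share, per length of exon. The median member stood at 2422 CPM per kb of exon (mean over 96 libraries), and 71 of 78 members lay within 2-fold of it. Of these, 60 lay within 0.5 and 41 within 0.25 on the log2 scale. The highest, rps-8 of the small subunit, lay only 0.67 log2 above, and 7 members lay over 2-fold below. All 7 belonged to the large subunit.

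**Figure D2:**
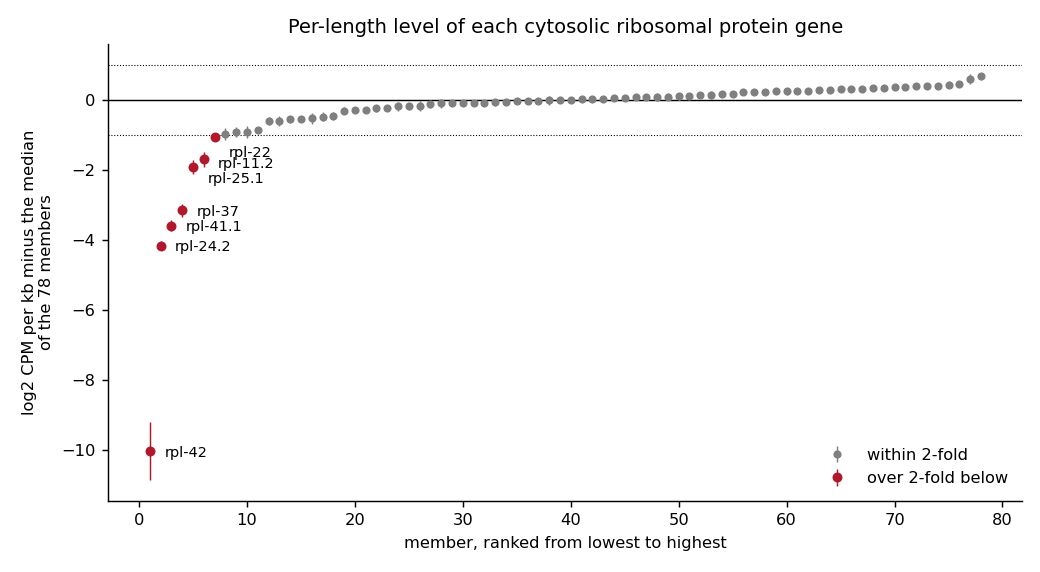
Mean over 96 libraries of log2 CPM per kb of exon minus the median of the 78 members in the same library, for each member from lowest to highest, with the SD over libraries as bars and 2-fold as dotted lines. Most members form a plateau around 0 that ends at 0.67, and 7 labelled members fall below the lower dotted line, the lowest being rpl-42 at -10.04.

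rpl-42 (WBGene00004455; chromosome II, 11092713 to 11094022 on WBcel235, forward strand) was close to absent. Its mean was 2.02 ± 1.23 CPM in the lines (SD, n = 85), 2.16 ± 1.12 CPM in N2 (n = 4) and 1.01 ± 0.402 CPM in CB4856 (n = 7), and it stood at -10.04 log2 from the common per-length level. It was the only member under 10 CPM, and the groups overlapped. rpl-24.2 (WBGene00004437; chromosome I, 9669415 to 9670098) stood at -4.17 log2 from that level, with 78.5 ± 9.03 CPM in the lines, 87.4 ± 8.14 CPM in N2 and 75.5 ± 8.53 CPM in CB4856. Its yeast relative Rlp24 is a factor of large subunit assembly and not a protein of the finished ribosome.

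rpl-41.1 (WBGene00023067; chromosome I, 4789190 to 4789592) encodes one of the shortest known proteins, with 66 bases of coding sequence, as does its close neighbour rpl-41.2 on the same strand (4790292 to 4790642). Relative to the common per-length level rpl-41.1 stood at -3.60 log2 and rpl-41.2 at 0.60. Per length, rpl-41.1 gave a median of 5.11% of the reads of the pair in the lines, 5.39% in N2 and 5.21% in CB4856. The ratio thus held in all 3 groups, with a range over the lines of 4.12% to 7.05%. rpl-24.1, which encodes the L24 protein itself, gave a median of 95.9% of its pair in the lines, 95.9% in N2 and 95.5% in CB4856.

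rpl-37 (WBGene00004451; chromosome III, 3528642 to 3528917) encodes a zinc-binding protein of the large subunit and stood at -3.15 log2 from the common per-length level. rpl-22 (chromosome II, 5055616 to 5056214) stood at -1.08 and was the member closest to the 2-fold limit. With the length of the longest transcript in place of all exons it moved inside, to -0.96. The member just inside was rpl-2 (chromosome V, 20479689 to 20480834), at -0.97. Reads that map to more than 1 place were not counted, so a member with a near-identical copy elsewhere in the genome is undercounted, and the sizes of these deficits are uncertain to that extent.

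The remaining members below 2-fold were the pair on the X chromosome. rpl-25.1 (WBGene00004438; X, 4715178 to 4715796) stood at -1.92 log2 from the common per-length level and rpl-11.2 (WBGene00004423; X, 2241738 to 2242618) at -1.70. No other member is on the X, which holds 2.56% of the members and 14.1% of the protein-coding genes tested. Chromosome I holds 23 members (29.5%, against 15.9% of those genes), chromosome III 18 (23.1% against 15.1%), chromosome IV 17, chromosome II 10 and chromosome V 8 (10.3% against 20.2%).

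The summed weight of the 78 genes answers whether the group as a whole differs between the parents. The members took 11.3%, 11.7%, 11.4% and 9.58% of gene counts in the N2 libraries of batches 3, 6, 8 and 9, against a lowest of 8.35%, a median of 9.58% and a highest of 9.82% in CB4856. The N2 libraries of batches 3, 6 and 8 lay above every CB4856 library and that of batch 9 fell inside the CB4856 range. The mean was 10.99% ± 0.955 in N2 (SD, n = 4) and 9.27% ± 0.590 in CB4856 (n = 7), a difference of 1.72 percentage points (exact permutation test, two-sided, p = 0.0242). Within batches N2 was higher by 1.67, 2.06, 1.67 and 0.99 points in batches 3, 6, 8 and 9. Leaving out the N2 library of batch 3, 6 or 8 left a difference of 1.63, 1.49 or 1.57 points with an exact permutation p of 0.0667.

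The lines spanned both parents, from 8.21% to 13.5% with a mean of 10.4% ± 1.09 (SD, n = 85). 11 lines lay above the highest parental library and 1 lay below the lowest. Line means by batch ran from 9.39% in batch 9 to 11.4% in batch 8. The typical member, taken as the median CPM of the 78, stood at 1188 ± 140 CPM in the lines, 1282 ± 82.4 CPM in N2 and 1037 ± 66.9 CPM in CB4856.

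**Figure D3:**
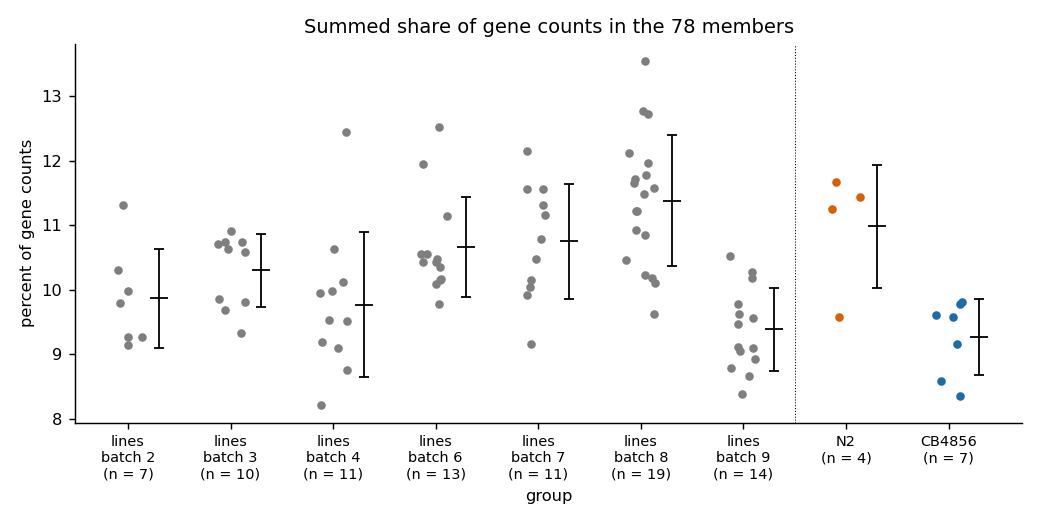
Percent of gene counts in the 78 ribosomal protein genes in each library, with lines split by batch, then N2 and CB4856, and the mean and SD of each group as bars. Lines of batch 8 average 11.4% and those of batch 9 average 9.39%, and 3 of 4 N2 libraries lie above all 7 CB4856 libraries.

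The share moved with markers of other tissues, given here over the 30 relations computed between 5 measures and 6 marker lists. The share and each marker sum are parts of the same gene counts. More counts in a large list, such as yolk or collagen, therefore lower the share by arithmetic alone. The size of this effect was not tested, and values over the 85 lines include differences between batches. Over the 85 lines its log2 value correlated with the summed CPM of 31 major sperm protein genes (Pearson's r = 0.58, Spearman's rho = 0.58, permutation p = 1e-05 for each, the smallest that 100000 permutations give, adjusted p = 1.67e-05 and 1.36e-05). Without the 2 lines farthest from the median sperm level r was 0.60, and within single batches it ran from -0.02 to 0.76. With 8 germline genes (glh, pgl, gld-1 and mex genes) r was -0.46 and rho -0.46 (permutation p = 2e-05 and 1e-05, adjusted 3.16e-05 and 1.36e-05), -0.54 without the 2 farthest lines and -0.72 to 0.29 within batches. With 6 yolk genes r was -0.55 and rho -0.55, -0.48 without the 2 farthest lines and -0.85 to 0.01 within batches, and with 13 oocyte and eggshell genes r was -0.48 and rho -0.50, -0.47 without the 2 farthest and -0.84 to 0.49 within batches (permutation p = 1e-05 for each, adjusted 1.67e-05 for r and 1.36e-05 for rho). With 156 cuticle collagen genes r was 0.41 and rho 0.48 (permutation p = 1e-04 and 1e-05, adjusted 0.000143 and 1.36e-05), 0.53 without the 2 farthest and -0.49 to 0.70 within batches, but 0.06 once batch means were removed. With 10 moult genes r was 0.35 and rho 0.31 (permutation p = 0.00105 and 0.00418, adjusted 0.00131 and 0.00482), 0.37 without the 2 farthest and -0.47 to 0.53 within batches. The direction thus did not hold in every batch for any of the 6 lists. With batch means removed the other values were 0.45 for sperm, -0.38 for germline, -0.38 for oocytes, -0.47 for yolk and 0.23 for the moult.

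Between the parents some of these markers differed as well. Of all 14858 genes tested by edgeR 33.9% were called, 17.9% higher and 16% lower in N2. The sperm genes summed to 614 to 1756 CPM in N2 and 116 to 461 CPM in CB4856, with 25 of the 27 tested higher in N2 by edgeR's quasi-likelihood test and 1 gene at 0 in N2. The germline genes summed to 3668 to 4715 CPM in N2 and 4387 to 5524 CPM in CB4856, with 4 of 8 lower in N2, and 13 oocyte and eggshell genes summed to 11081 to 16817 CPM in N2 and 15307 to 17848 CPM in CB4856, with 10 lower in N2. None of the germline or oocyte genes was at 0 in either parent. The other lists were called less often than all genes. Of 6 yolk genes 1 was called, higher in N2, and of 10 moult genes 2, both higher in N2. Of 116 cuticle collagen genes tested 15 (12.9%) were called, 10 higher and 5 lower in N2. The part of these tissues in the difference between N2 and CB4856 was not tested.

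Gene by gene, ribosomal protein genes were higher in N2 or did not pass the test. With edgeR's quasi-likelihood test and TMM scaling, 37 of 78 members were called at an adjusted p under 0.05, all higher in N2. Of all 14858 genes tested 33.9% were called, 17.9% higher and 16% lower in N2. The called members had log2 fold changes (N2 over CB4856) of 0.19 to 0.47. The median of the 78 was 0.22, against 0.03 over all genes tested, and 77 of 78 were above 0, the exception being rps-13 at -0.01. With the first principal component of the lines as a covariate 66 were above 0. The large subunit gave 21 of 47 and the small subunit 16 of 31. With batch as a replicate block 24 members (30.8%) were called, against 2212 of 14858 genes tested, and with that component as a covariate 10 (12.8%), against 2515. Without the N2 library of batch 3 they numbered 14 (17.9%), against 4947 of 15064 genes. Without that of batch 6 or of batch 8 they numbered 20 (25.6%), against 3364 of 15009 and 3230 of 15014 genes. With the component, and without N2 of batch 3, the share of members called was thus below that of all genes. It was above that of all genes in the rest of these fits. In each of these fits every called member was higher in N2.

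rps-19, whose human counterpart is mutated in Diamond-Blackfan anaemia, had the smallest adjusted p. It was at 1247, 1316, 1213 and 1157 CPM in N2 in batches 3, 6, 8 and 9, against a lowest of 827, a median of 864 and a highest of 1006 CPM in CB4856. The 2 strains did not overlap, and the log2 fold change was 0.46 ± 0.07 (SE; edgeR, adjusted p = 0.000391). rpl-39, whose product lines the tunnel through which the new protein leaves, was at 716, 640, 713 and 611 CPM in N2, against 417, 465 and 567 CPM (lowest, median and highest) in CB4856. Its log2 fold change of 0.47 ± 0.08 was the highest of the called members (edgeR, adjusted p = 0.00115), again without overlap.

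rpl-37 was at 93.2, 87.9, 85.3 and 104 CPM in N2, against 62.03, 63.7 and 73.7 CPM in CB4856, a log2 fold change of 0.46 ± 0.08 (edgeR, adjusted p = 0.00114). The 2 strains did not overlap in this low member either. Of the other low members, rpl-24.2 (0.17 ± 0.08, adjusted p = 0.126) and rpl-42 (1.06 ± 0.40, adjusted p = 0.0604), did not pass the edgeR test, while rpl-41.1 did (0.22 ± 0.07, adjusted p = 0.0351). Over 16 alternative fits rps-19, rpl-39 and rpl-37 passed in each, whereas rpl-41.1 lost the call in 9 (edgeR or DESeq2 adjusted p of 0.0199 to 0.137 over the 16). rpl-24.2 passed without the CB4856 library of batch 3 (edgeR adjusted p = 0.0265), and rpl-42 without the CB4856 library of batch 8 (0.0494) or the N2 library of batch 9 (0.00822).

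To ask which members leave the level that the group shares, the fit was repeated with library sizes set so that the members have a common level. This scaling shifted the median of all genes to -0.19 log2 in N2 over CB4856, and folds below are relative to the ribosomal protein genes. It takes the shared shift out of the members and puts it into other genes, so their shares called cannot be compared. In this fit 10 of 78 members were called by edgeR at an adjusted p under 0.05, against 40.1% of all genes tested (12.1% higher and 28% lower in N2). Of these 6 were higher and 4 lower in N2, with log2 fold changes from -0.23 to 0.25. With batch as a replicate block 1 was called, 3 without the N2 library of batch 8, 14 without that of batch 9, and 6 without N2 of batch 3 or 6 or without CB4856 of batch 2, 6 or 7.

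The members higher in N2 relative to the rest were rpl-39 (0.25 ± 0.09, SE), rps-19 (0.23 ± 0.08), rpl-9 (0.23 ± 0.06), rpl-2 (0.22 ± 0.06), rps-28 (0.22 ± 0.08) and rpl-36 (0.18 ± 0.06), with edgeR adjusted p-values of 0.00955 for rpl-9 to 0.0441 for rps-28. rpl-9, of the large subunit, is the clearest of them. Its log2 level relative to the median member was 0.40, 0.47, 0.43 and 0.34 in the N2 libraries of batches 3, 6, 8 and 9, against a lowest of 0.19, a median of 0.24 and a highest of 0.29 in CB4856. The 2 strains did not overlap. rpl-2, which encodes a protein close to the peptidyl transferase centre, was at 0.01, 0.05, -0.01 and -0.13 in N2 and at -0.29, -0.14 and -0.12 (lowest, median and highest) in CB4856, with the N2 library of batch 9 inside the CB4856 range.

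The members lower in N2 relative to the rest were rps-13 (-0.23 ± 0.07), rps-2 (-0.22 ± 0.07), rpl-1 (-0.20 ± 0.06) and rps-4 (-0.18 ± 0.06), with edgeR adjusted p-values of 0.0183 for rps-2 to 0.0347 for rps-4. rps-13, a protein of the small subunit, was at -0.64, -0.74, -0.77 and -0.80 in N2, against -0.60, -0.48 and -0.34 in CB4856. rps-2, which lies at the mRNA entry channel, was at 0.62, 0.64, 0.65 and 0.47 in N2, against 0.75, 0.85 and 0.99 in CB4856. Neither gene overlapped between the strains. With TMM scaling these 4 genes had log2 fold changes between -0.01 and 0.03, none of which passed the test, and each of the 4 changed sign under some alternatives.

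**Figure D4:**
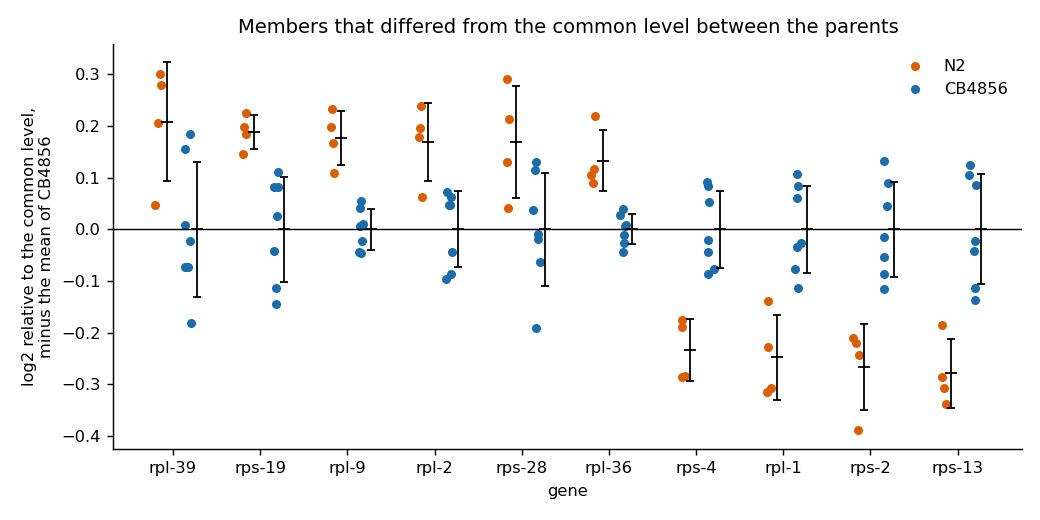
Log2 level relative to the common level of the ribosomal protein genes, minus the CB4856 mean of that gene, in the 4 N2 (orange) and 7 CB4856 (blue) libraries for the 10 members called in that fit, with mean and SD as bars. rpl-39 has the highest fitted fold at 0.25 and rps-13 the lowest at -0.23, and for rpl-39, rpl-2 and rps-28 the strains overlap.

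Relative to the common level, 16 members did not overlap between the strains, 3 (3.85%) with N2 above CB4856 (rpl-9, rpl-36 and rps-19) and 13 (16.7%) with N2 below. Over all genes tested 26.7% did not overlap, 4.11% with N2 above and 22.6% below. Neither share of the members exceeded that over all genes. The level of the members was itself higher in N2, which moves other genes down in N2 on this scale. The shares of members and of all genes therefore cannot be compared. Reads of CB4856 were mapped to a genome made from N2, and whether this lowered any member in CB4856 was not tested.

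Against the midpoint of the parents the lines showed no member that passed. With TMM scaling 0 of 78 members were called by edgeR, against 0.0364% of 16500 genes tested, and at an unadjusted p under 0.05 there were also 0. Relative to the common level 0 were called, against 0.0303% of all genes, and 1 had an unadjusted p under 0.05. Single lines nevertheless lay outside the parental range. The median member had 10 of 85 lines above or below all 11 parental libraries, and the median gene tested had 12. At 17 or more such lines stood 29.5% of members and 28.4% of all genes. All genes were here taken relative to the level of the members, so these values cannot rank members against other genes.

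rpl-9 and rpl-24.2 had many such lines. For rpl-9, 33 lines were below every parental library and 2 above, with a lowest of -0.04, a median of 0.22 and a highest of 0.65 log2 relative to the common level. For rpl-24.2, 40 lines were below and 1 above. For rps-19, 19 lines were above and 3 below.

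The spread of each member over the lines was measured relative to the common level. The median member had an SD of 0.089 log2 over 85 lines, against a pooled SD within the parental strains of 0.070, and 51 of 78 members had an SD under 0.1. In CPM the median SD was 0.176, which includes the level that the members share. The ratio of the variance over lines to that within strains had a median of 1.54, against 1.79 over all genes tested. It exceeded 4 in 12.8% of members and 13.6% of all genes, and without QX571 in 8.97% and 12.3%. All genes were measured against the level of the members, whose spread is removed from the members but can enter other genes. These values therefore cannot tell whether members are steadier than other genes.

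Members that moved most over the lines, among those with at least 10 CPM, were rpl-11.2 (SD 0.207), rpl-37 (0.187), rpl-25.1 (0.187), rpl-2 (0.176), rpl-7A (0.171) and rpl-30 (0.156). For rpl-7A and rpl-30 the line QX571 set this value, since without it their SDs were 0.082 and 0.079. Within batch 9 the SD of rpl-37 was 0.308, against 0.078 to 0.134 within each of the other batches. Those of rpl-25.1 (0.278) and rpl-11.2 (0.252) were also largest in batch 9, with at most 0.191 and 0.210 in other batches. Without QX571 the members over 0.15 numbered 5, one of them rpl-42 with an SD of 0.818. Counting error gives rpl-42 an SD of 0.210, and its pooled SD within the parental strains was 0.724. The members that moved least were rpl-31 (0.050), rps-10 (0.055) and rps-26 (0.058). rpl-31 is close to the median member itself, which may lower its SD, although rpl-33, at least as close, had an SD of 0.075.

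rpl-2 was 1 of 5 members, rpl-9 and rps-19 among them, whose 3 most correlated other genes all lay on their own chromosome. Its 3 closest partners among 12586 other protein-coding genes over the 85 lines, batch means removed, were Y113G7B.12 (r = 0.83), F26F2.7 (0.83) and fbxa-113 (-0.82), all on chromosome V within 0.276 Mb. For rpl-9 the 3 were R07E5.15 (0.81), C28A5.1 (-0.80) and ctsa-4.2 (0.71), all on chromosome III between 0.960 and 3.17 Mb away. For rpl-37 they were gsr-1 (-0.59; chromosome III, 0.122 Mb away), clc-31 (0.57; chromosome II) and elo-6 (0.56; chromosome IV). Without QX571 the third for rpl-37 was T21G5.2 (0.56; chromosome I), while rpl-2 and rpl-9 had the same 3 partners. These are the highest of many correlations across lines that share libraries and batches, and they are given as a description. The 7 genes high in QX571 correlated with each other at r = 0.59 to 0.88, and without that line at 0.02 to 0.70.

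Both paralogues on the X chromosome went together. rpl-11.2 encodes a copy of L11, a part of the particle that holds 5S ribosomal RNA, and rpl-25.1 a copy of the protein at the exit of the nascent chain tunnel. Over the lines, batch means removed, they correlated at r = 0.92 with each other, and rpl-11.2 at -0.68 with its autosomal partner rpl-11.1 (chromosome V). rpl-25.1 correlated at -0.44 with rpl-25.2 (chromosome I). Since each value is taken against the same common level, these are descriptions. Without QX571 the 3 values were 0.92, -0.69 and -0.44.

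The mix within each pair varied over the lines. rpl-11.1 gave a lowest of 44.4%, a median of 68.1% and a highest of 77.7% of the per-length reads of its pair in the lines, 58.6% to 75.4% in N2 and 66.7% to 78.3% in CB4856. rpl-25.1 gave a lowest of 15.6%, a median of 21.8% and a highest of 36.1% of its pair in the lines, 17.6% to 25.8% in N2 and 13.7% to 24.6% in CB4856. The strains overlapped in both pairs. Neither X-linked gene passed the edgeR test between N2 and CB4856 (rpl-11.2 0.29 ± 0.17, adjusted p = 0.202; rpl-25.1 0.30 ± 0.16, adjusted p = 0.162). Without the N2 library of batch 9 both passed, at 0.44 for rpl-11.2 (edgeR adjusted p = 0.0251) and 0.43 for rpl-25.1 (0.0293), and with the first principal component as a covariate they stood at -0.09 and -0.04. The line QX519 had the highest rpl-11.2 and rpl-25.1 and the lowest rpl-11.1 of the 85 lines relative to the common level, at 0.69, 0.81 and -0.75 log2 from the median of the lines.

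X-linked members were lower, and their autosomal partners higher, in lines with more germline RNA. Relative to the common level, rpl-11.2 correlated with the summed log2 CPM of the 8 germline genes at r = -0.80 and rho = -0.81, and rpl-25.1 at -0.78 and -0.79 (permutation p = 1e-05 for each, the smallest possible, adjusted over 30 relations 1.67e-05 for r and 1.36e-05 for rho). For rpl-11.1 r was 0.63 and rho 0.54, and for rpl-25.2 0.72 and 0.68, with the same permutation p-values. Without the 2 lines farthest from the median germline level r was -0.78 for rpl-11.2, -0.75 for rpl-25.1, 0.48 for rpl-11.1 and 0.64 for rpl-25.2. Within single batches r ran from -0.94 to -0.46 for rpl-11.2, -0.89 to -0.25 for rpl-25.1, 0.40 to 0.83 for rpl-11.1 and 0.04 to 0.77 for rpl-25.2. The sign was thus the same in all 7 batches for all 4 genes.

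**Figure D5:**
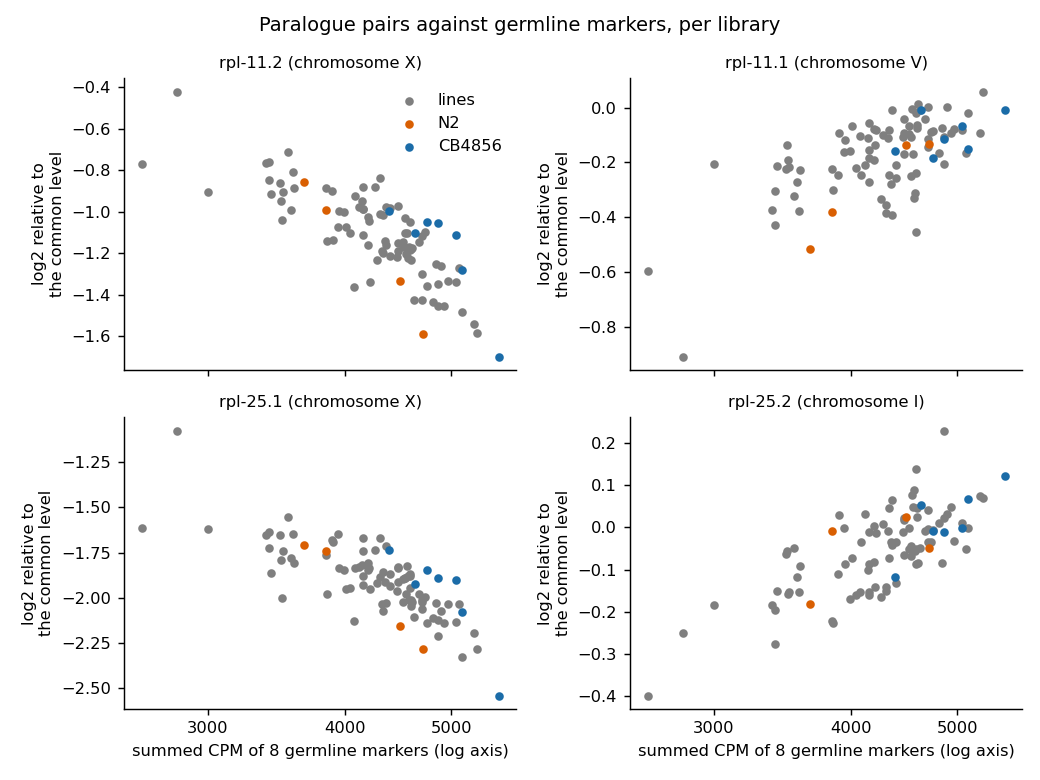
Log2 level relative to the common level against the summed CPM of 8 germline marker genes (log axis), 1 point per library, for the X-linked members rpl-11.2 and rpl-25.1 (left) and their autosomal partners rpl-11.1 and rpl-25.2 (right). Over the lines r is -0.80 and -0.78 on the left and 0.63 and 0.72 on the right, and both parents lie along the same bands.

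Sperm markers ran the other way, with r = 0.67 for rpl-11.2, 0.58 for rpl-25.1, -0.48 for rpl-11.1 and -0.64 for rpl-25.2 (rho 0.71, 0.62, -0.52 and -0.68, permutation p = 1e-05 for each, adjusted 1.67e-05 and 1.36e-05). In the same gene order r was -0.76, -0.70, 0.63 and 0.66 with the oocyte and eggshell genes. With cuticle collagen it was 0.49, 0.38, -0.39 and -0.52, and with the moult genes 0.50, 0.42, -0.34 and -0.42. With yolk it was -0.11, -0.07, 0.26 and 0.30. Within single batches the sign held for sperm in all but rpl-11.1 (-0.61 to 0.05). For the oocyte and eggshell genes it held in all but rpl-25.2 (-0.17 to 0.75). For cuticle collagen it held in rpl-11.1 alone (-0.60 to -0.01), and for the moult and yolk in none of these genes. The germline list was thus not the only one that moved with these genes, and the part of each tissue was not tested. The closest partner of both X-linked members was asb-2 (0.85 and 0.84; chromosome X), which encodes a subunit of ATP synthase, followed by nduf-2.2 on chromosome III (-0.84 and -0.83). The third was got-1.2 for rpl-11.2 (0.84; chromosome X) and pgl-3, 1 of the 8 germline markers, for rpl-25.1 (-0.82; chromosome V). This order rests on QX571. Without that line nduf-2.2 came first for both (-0.86 and -0.85), followed by asb-2 (0.85 and 0.84) and by rpn-9 on chromosome II, which encodes a subunit of the proteasome (-0.85 and -0.83).

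Batches of lines differed in nearly every member, as they did in most genes. With TMM scaling 77 of 78 members were called over the 7 batches by edgeR, against 79.5% of 16030 genes tested, and the exception was rpl-37. Relative to the common level 40 of 78 were called, against 82.4%, and 24 without the lines of batch 8. That scaling takes the shared movement out of the members and puts it into other genes, so the shares cannot be compared. Of the 40 members, the 3 with the smallest p were rpl-18, rpl-16 and rpl-24.2. rpl-18 had batch means from 0.69 in batch 8 to 0.86 in batch 2, rpl-16 from 0.59 in batch 8 to 0.75 in batch 2, and rpl-24.2 from -4.02 in batch 8 to -3.78 in batch 3. Batches hold different lines, so batch and genotype cannot be told apart here.

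Other genes of the translation machinery were taken from the same TMM-scaled fit, in which 33.9% of all genes were called, 17.9% higher and 16% lower in N2. Among 6 genes whose proteins belong to or sit on the ribosome but carry other symbols, all had fold changes above 0, as most members did, and the stalk protein gene rla-1 was called higher in N2 (1206 CPM in N2 and 1001 CPM in CB4856 on average, log2 fold change 0.23 ± 0.07, edgeR adjusted p = 0.0251). Of rla-0, rla-2, ubl-1, ubq-2 and rack-1 none passed, at 0.09 to 0.17. Of 6 elongation factor genes 0 passed (1 at an unadjusted p under 0.05), and of 34 initiation factor genes 8 (23.5%) passed, all lower in N2, among them eif-3.H (-0.44 ± 0.09, adjusted p = 0.0050) and the cap-binding protein gene ife-3 (-0.36 ± 0.09, adjusted p = 0.0109). Of 23 genes of the nucleolus and of ribosome assembly 2 (8.70%) were lower, nol-6 and nol-14, and of 10 genes of the TOR pathway, which controls ribosome production, 4 (40%) were lower, raga-1, rict-1, let-363 and mlst-8.

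The mitochondrial ribosome and the proteasome serve as other large complexes. Of 70 mitochondrial ribosomal protein genes 6 were higher and 1 lower in N2 (10% called), and of 33 proteasome genes 3 were higher and 3 lower (18.2% called; edgeR). Differences between these lists and the members were not tested. The common level of the cytosolic ribosomal protein genes differed by 0.31 log2 between N2 and CB4856, that of the mitochondrial ribosome by 0.09 and that of the proteasome by 0.01. These values are from CPM without TMM scaling, whereas the median log2 fold changes of the TMM-scaled fit were 0.22, 0.04 and 0.04. Over the lines the SD of the common level was 0.164 for the cytosolic ribosome, 0.087 for the mitochondrial ribosome and 0.111 for the proteasome. About their own common level, the median SD of a gene over the lines was 0.091, 0.116 and 0.071 in the same order, with counting errors of 0.0087, 0.049 and 0.021.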

How the data were processed

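The deposited values are counts of reads per gene for 96 libraries of total RNA, which the authors did not normalise. Per the submitters' processing notes, FastQC, STAR 2.73a and DESeq2 were used with the WBcel235 genome; the annotation release is not given in the sources used here. The unstranded column was taken, because reads fell evenly on both strands, so overlapping genes cannot be separated; 14 members have exons that overlap another gene. The totals of unassigned reads were left out of library sizes. No 2 libraries agreed within sampling noise, with a chi-square of at least 7.13 per degree of freedom in each of 4560 pairs.

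Tests used edgeR 4.0.16 in R 4.3.3 (filterByExpr, TMM, robust quasi-likelihood, two-sided, Benjamini-Hochberg over all genes tested, threshold 0.05), and library sizes from the median of ratios over members for values relative to the common level. The fits were tested on simulated data. N2 and CB4856 were compared in 11 libraries, lines and the parental midpoint in 96, batches in 85 lines. Levels are CPM, and logs used a pseudocount of 0.5 counts. Standard errors were derived from the fold change and its F statistic. The batch in the titles pairs the parental libraries of 4 batches; deviations from strain means correlated at 0.35, 0.06, 0.62 and 0.14 in batches 3, 6, 8 and 9.

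Members, gene lists and tests were chosen with earlier results of these data known. Named members were those called relative to the common level between the parents (up to 4 per direction), over 2-fold from it per length, with the 6 highest and 3 lowest SDs over lines, in a pair of paralogues of 1 stem, or with the 3 smallest p-values for batches; partners were the 3 highest absolute correlations of the 3 most variable members. rpl-36 and rps-28 are outside the rule, as are the partners of rpl-2 and rpl-9 and the other genes said to be singled out; they were chosen after their values were seen. Alternatives were other scalings, filters, lengths and pseudocounts, the batch as a block, a covariate, and leaving out libraries; fits without QX571 and 3 further alternatives were added after seeing the data.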

Additional observations from a re-analysis of the deposited data

Results flagged for a closer look

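Among 54 groups of parental libraries tested for a library far from the others, 3 stood apart, and chance flags about 1 in 20. The CB4856 library of batch 3 was at -2.54 for rpl-25.1 (log2 relative to the common level), against -2.08 to -1.74 in the other CB4856 libraries. The same library was at -1.70 for rpl-11.2, against -1.28 to -0.998 in the others, and it had the highest germline marker sum of the parents (5524 CPM). The N2 library of batch 9 was at 0.47 for rpl-16, against 0.70 to 0.73 in the other N2 libraries.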

How the results depend on the processing

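None of the 37 members called between N2 and CB4856 changed sign under the 16 alternatives, and the median fold change of the members stayed above 0 (0.14 to 0.28). 13 members in all, none of them called, did change sign; the count above 0 was 66 with component 1 as a covariate, 75 with DESeq2 size factors, 74 with DESeq2's Wald test and 74 without the N2 library of batch 3. Of the members that the text names, with component 1 the log2 fold change was -0.108 for rps-2, -0.052 for rpl-1, -0.038 for rps-4, -0.037 for rpl-25.1, -0.092 for rpl-11.2 and -0.042 for rpl-7A. With DESeq2 size factors it was -0.022 for rps-2 and -0.0051 for rpl-1, with DESeq2's Wald test -0.032 for rps-2, -0.015 for rpl-1 and -0.000105 for rps-4, without a filter -0.015 for rps-2 and with the replicate block 0.011 for rps-13. When 1 library was left out it ran from -0.064 to 0.042 for rps-13, -0.054 to 0.077 for rps-2, -0.037 to 0.076 for rpl-1, -0.028 to 0.088 for rps-4 and -0.0038 to 0.132 for rpl-11.1. The count of members called between N2 and CB4856 was 24 with batch as a replicate block, 10 with component 1 as a covariate and 14 to 50 when 1 parental library was left out. Over all genes tested the counts called were 2212, 2515 and 3230 to 6544 in the same order. Relative to the common level it was 1 with the replicate block and 3 to 14 when 1 library was left out, and the count over batches was 24 without the lines of batch 8. The difference in share ran from 1.49 to 2.19 points when 1 library was left out. The replicate block left the count against the midpoint at 0. The cause of these changes was not tested, and neither was the part of the fewer samples or degrees of freedom of each fit. Of the other values, for single members and each setting, 645 kept their side, 84 lost a call and 12 gained one with the same sign, 27 changed sign as above and 3 moved: rpl-22 per length, and the SDs of rpl-7A and rpl-30 without QX571. Counting error was small at this depth for all members but rpl-42.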
